A study of Homo sapiens with 12 samples.

Results

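The TNF-receptor family of B cells was followed in 10 genes: the receptors CD40, CD27, TNFRSF13B, TNFRSF13C, TNFRSF1B, TNFRSF8, FAS and TNFRSF10B, and the ligands CD70 and LTB. The rule names the genes and uses no measured value, but it was written with earlier results of these data known. They were 10 of the 19775 genes measured. They are read by 21 of the 41097 probe sets that name a single gene. RNA was taken from 3 human mantle cell lymphoma cell lines, Rec-1, SP-49 and Mino, and hybridised to 12 Affymetrix arrays. In each line the GSI cells received compound E at 1 µM and the Mock cells received 0.1% DMSO, for 24 h, with 2 arrays per group. The labels give no DMSO content for the GSI cells. Compound E inhibits gamma-secretase, the protease that releases the active part of Notch receptors. Rec-1 and SP-49 grew in medium with 10% serum and Mino in medium with 15% serum, so a difference of either line from Mino cannot be told apart from the medium. Nothing in the labels says whether the 2 arrays of a group came from separate cultures, so p-values refer to the spread between these arrays alone, and that spread may be technical.

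Receptors of the TNF family are membrane proteins that trimeric ligands engage. Most B-cell members recruit TRAF adaptors and feed the classical or alternative NF-kB pathway, whereas the death receptors recruit FADD and caspase-8. In B cells CD40 receives help from T cells, TNFRSF13C (the BAFF receptor) binds the survival factor BAFF, TNFRSF13B (TACI) binds BAFF and APRIL, and CD27, a marker of memory B cells, binds CD70.

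The start-site regions of 3 members are shown because the results turn on them, among the 6 members with a window: CD27 fell with GSI in Rec-1, TNFRSF1B was lower with GSI on average over the lines, and LTB separated Rec-1 from the other lines. Each window runs from 250 bases before to 50 bases after the start site, 5′ to 3′ on the gene's strand, from RefSeq on GRCh38.p14. The windows lie at chr12:6443642-6443941 (plus strand) for CD27, at chr1:12166741-12167040 (plus strand) for TNFRSF1B and at chr6:31582376-31582675 (minus strand) for LTB, where the first of 2 windows is printed. Capitals mark TGGGAA, the core bound by the Notch partner RBPJ, or a form of the NF-kB site (GGG, any 3 bases, then TTCC), searched on both strands. The motifs share letters and can overlap, but no window printed here held both.
CD27: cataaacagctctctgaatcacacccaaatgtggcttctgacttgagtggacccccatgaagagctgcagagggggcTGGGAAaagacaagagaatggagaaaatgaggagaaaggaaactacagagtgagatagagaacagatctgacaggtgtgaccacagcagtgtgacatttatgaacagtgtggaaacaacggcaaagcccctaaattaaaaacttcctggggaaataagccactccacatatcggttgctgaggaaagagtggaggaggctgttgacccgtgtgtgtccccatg
TNFRSF1B: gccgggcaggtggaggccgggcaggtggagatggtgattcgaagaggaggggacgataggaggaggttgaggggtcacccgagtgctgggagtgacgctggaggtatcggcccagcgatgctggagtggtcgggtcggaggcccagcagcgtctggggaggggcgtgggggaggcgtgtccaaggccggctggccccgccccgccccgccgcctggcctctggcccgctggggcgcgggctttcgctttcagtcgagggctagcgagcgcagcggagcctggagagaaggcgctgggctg
LTB: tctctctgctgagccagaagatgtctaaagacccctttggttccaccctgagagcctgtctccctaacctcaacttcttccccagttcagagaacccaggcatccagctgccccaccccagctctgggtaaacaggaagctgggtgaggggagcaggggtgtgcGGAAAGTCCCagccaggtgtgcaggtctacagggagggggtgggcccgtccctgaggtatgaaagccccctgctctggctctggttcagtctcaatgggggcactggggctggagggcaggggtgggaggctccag
The CD27 window held TGGGAA on the gene's strand, beginning 173 bases before the start site. Among the members not printed, FAS held it too, in windows where it began 193 and 180 bases before the start site. A further FAS window did not hold it. That motif is common, and 24.0% of all 35116 such windows held it. LTB held the NF-kB form on the opposite strand, its first base 86 bases before the start site, and 6.52% of all windows held that motif. The TNFRSF1B window had neither run of letters. A match describes the sequence and is not a measured binding site.

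Values are log2 expression values that span 0.58 to 12.78 over all probe sets and arrays, with a median of 1.99. A value near that median is close to the level of most probe sets, and levels of different genes are not compared because each probe set has its own response. The B-cell label was checked against markers: all 8 measured B-cell genes had a group mean above the median, and their mean level lay between 7.73 and 8.70 on every array. All 5 measured myeloid markers stayed under it, with a list mean of 1.39 to 1.66. Of 11 T and NK cell markers, 4 stayed under the median in every group, and the mean of the 11 was 1.86 to 2.45. The other 7 exceeded the median in at least 1 group. The highest Mock means among them were 4.80 for CD3D in Rec-1 and 4.43 for CD7 in Mino. The 3 mantle cell lymphoma markers varied by line in Mock cells, with CCND1 at 10.12 in Rec-1, 10.45 in SP-49 and 8.52 in Mino, SOX11 at 4.90, 8.56 and 7.42, and CD5 at 2.40, 2.73 and 4.37 in the same order. HES1, a direct Notch target, had a mean of 1.96 in GSI against 5.77 in Mock cells of Rec-1, 2.43 against 5.94 in SP-49 and 1.77 against 1.84 in Mino. Its change was −3.80 in Rec-1 and −3.51 in SP-49 (limma adjusted p = 3.45e-06 and 1.18e-05), and −0.07 in Mino, which did not pass. The second GSI arrays of Rec-1 and SP-49 had the narrowest spread of values (SD 1.95 and 1.996, against 2.01 to 2.05 on the other 10 arrays).

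**Figure D1:**
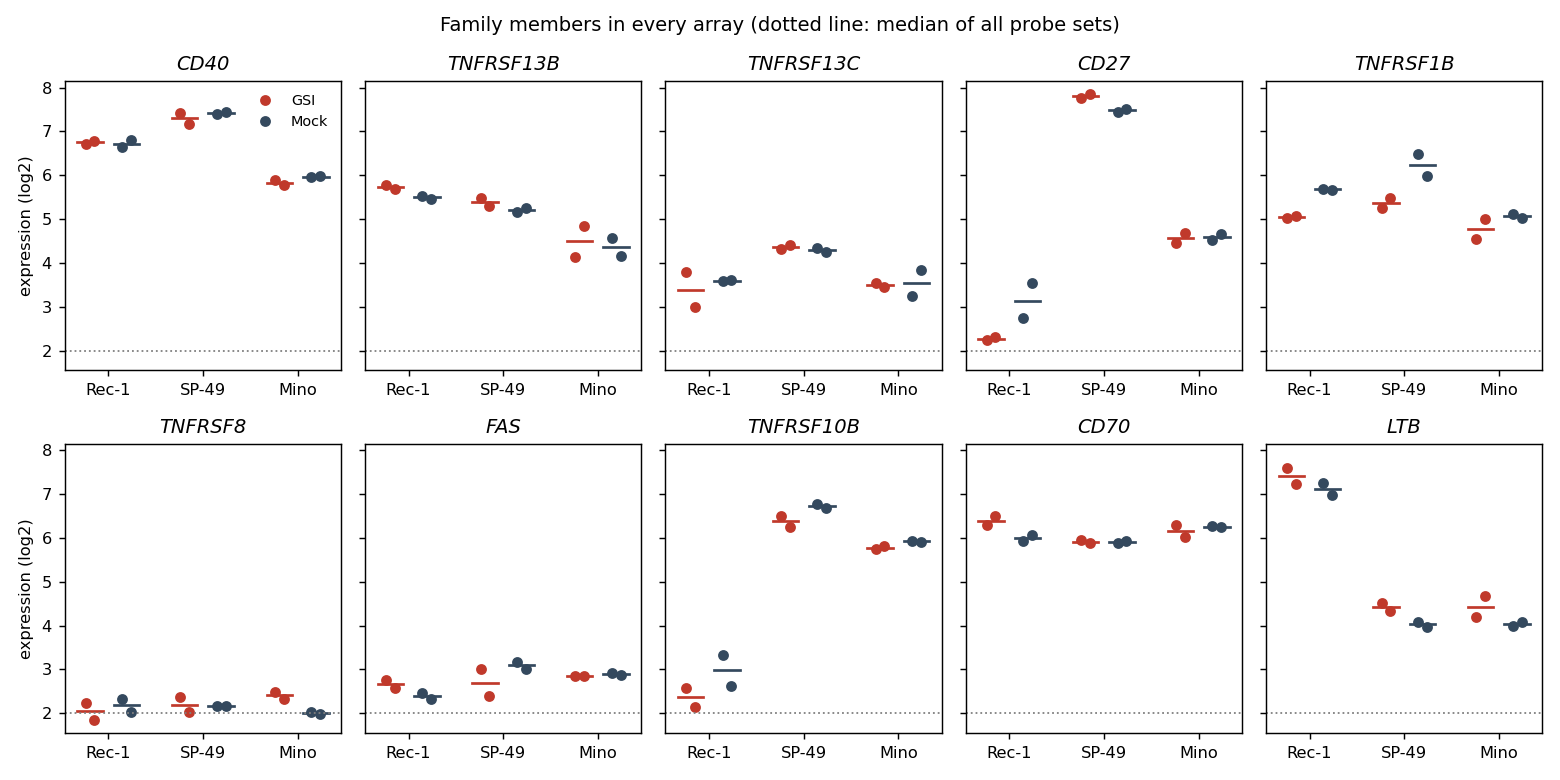
Log2 expression of the 10 members on all 12 arrays, 1 panel per gene; points are arrays and bars are means of 2. In each line GSI stands left of Mock. CD27 and TNFRSF10B are lowest in Rec-1, LTB is highest there, and TNFRSF1B sits lower with GSI than with Mock in each line.

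The first question was whether the members' transcripts moved when gamma-secretase was inhibited. CD27 fell in Rec-1. TNFRSF1B had lower values with GSI in every line, without a call in any single line in the main fit. Its fall in the average of the 3 lines comes from a comparison added after these values had been seen. No member rose. By limma over all 19775 genes, Rec-1 had 1 of the 10 members past the threshold (adjusted p under 0.05, as throughout), SP-49 had 0 and Mino had 0. The same threshold called 5.77% of all genes in Rec-1 (2.15% higher, 3.62% lower), 0.192% in SP-49 and 0% in Mino. At an unadjusted p under 0.05, 4 members in Rec-1, 1 in SP-49 and 1 in Mino passed, against 19.2%, 8.87% and 4.9% of all genes. With an intensity trend and a robust prior in limma, 2 members were called in Rec-1 (CD27 and TNFRSF1B), 1 in SP-49 (TNFRSF1B) and 0 in Mino. Over all genes in Rec-1, 426 rose and 715 fell, and after a further quantile normalization 657 rose and 600 fell. The members' median change was −0.05 in Rec-1, 0.02 in SP-49 and −0.05 in Mino, and the medians of all genes were 0.01, −0.02 and −0.004.

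CD27, the co-stimulatory receptor for CD70, had values of 2.24 and 2.30 on the GSI arrays of Rec-1, against 2.74 and 3.54 on the Mock arrays. Both GSI values lay below both Mock values, and the Mock arrays lay further apart than the GSI arrays. The GSI values in Rec-1 were close to the median of all probe sets (1.99), where a difference may be understated. The mean was 2.27 ± 0.04 in GSI and 3.14 ± 0.56 in Mock cells (SD, n = 2 each). CD27 fell by 0.87 in Rec-1, a 1.83-fold difference (SE 0.21, 95% interval −1.33 to −0.41, limma adjusted p = 0.0337). That SE draws on the spread of all 6 groups, and the Mock SD of Rec-1 was the widest of them for CD27. The call ended in 3 of 11 other settings: only the compared arrays in the fit, array weights, and the second GSI arrays of Rec-1 and SP-49 left out. Limma adjusted p-values over the 11 settings ran up to 0.254. Without the second Mock array of Rec-1 the difference was −0.47 and did not pass (adjusted p = 0.190). Without the first or second GSI array of Rec-1 the adjusted p was 0.0662 and 0.0916, and without either Mock array of SP-49 it was 0.0591.

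In SP-49, where CD27 was highest, the GSI arrays had 7.77 and 7.85, against 7.45 and 7.51 on the Mock arrays. Both GSI values were above both Mock values, and the difference of 0.33 did not pass (95% interval −0.13 to 0.79, limma adjusted p = 0.741). Mino had 4.46 and 4.68 with GSI, against 4.53 and 4.66 with Mock, and these ranges overlapped. The change in Rec-1 minus that in SP-49 was −1.20 (95% interval −1.86 to −0.55) with a limma adjusted p of 0.128, and the change in Rec-1 minus that in Mino was −0.85 with an adjusted p of 0.220. A difference in the CD27 response between lines was therefore not called, although the one between Rec-1 and SP-49 was with an intensity trend and robust prior.

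TNFRSF1B (TNF receptor 2), which binds TNF and lymphotoxin-alpha and recruits TRAF2, had 5.02 and 5.06 in GSI, against 5.69 and 5.67 in Mock cells of Rec-1. SP-49 had 5.26 and 5.48 in GSI, against 6.49 and 5.98 in Mock cells. Mino had 4.54 and 4.99 in GSI, against 5.11 and 5.02 in Mock cells. In all 3 lines both GSI arrays were below both Mock arrays, narrowly so in Mino. The differences were −0.64 in Rec-1 (95% interval −1.05 to −0.23), −0.87 in SP-49 (−1.28 to −0.46) and −0.30 in Mino (−0.71 to 0.11), and none passed within its own line (limma adjusted p = 0.0751, 0.114 and 0.9998).

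The average GSI minus Mock over the 3 lines was a comparison added after these values had been seen. TNFRSF1B fell by 0.60 in it, a 1.52-fold difference (SE 0.11, 95% interval −0.84 to −0.37, limma adjusted p = 0.0190). It was the 1 member of 10 called there, and 1.9% of all genes were called, 1.39% as lower. The call ended in 3 other settings, among them a further quantile normalization (adjusted p = 0.0516), and when any of 6 arrays was left out: both Mock arrays of Rec-1, the first of SP-49, both of Mino and the first GSI array of Mino. Adjusted p-values of the average over all single-array omissions ran between 0.0195 and 0.0637.

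TNFRSF10B (TRAIL receptor 2), a death receptor, was lower on both GSI arrays than on both Mock arrays in each line by its brightest probe set, without a call. Its values were 2.59 and 2.14 in GSI against 3.33 and 2.63 in Mock cells of Rec-1, 6.51 and 6.26 against 6.78 and 6.68 in SP-49, and 5.76 and 5.81 against 5.94 and 5.90 in Mino. The differences were −0.62, −0.35 and −0.14 (limma adjusted p = 0.138, 0.732 and 0.9998). In Rec-1 the difference was −0.97 once the second Mock array was left out, and it then rested on the Mock array at 3.33. The other Mock array, at 2.63, lay close to the GSI value of 2.59. The size of the fall in Rec-1 therefore depends on the first Mock array. The other probe sets did not all share the direction: of 4, 1 was higher with GSI in Rec-1, 1 in SP-49 and 2 in Mino, and the mean of the probe sets differed by −0.13 in Rec-1 (adjusted p = 0.708).

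LTB, the membrane-bound lymphotoxin-beta subunit, had higher means with GSI than with Mock. Its values were 7.61 and 7.23 in GSI against 7.26 and 6.99 in Mock cells of Rec-1, 4.51 and 4.34 against 4.08 and 3.97 in SP-49, and 4.20 and 4.67 against 3.99 and 4.07 in Mino. The groups overlapped in Rec-1 and not in the other lines. The differences of 0.29, 0.40 and 0.40 did not pass (limma adjusted p = 0.450, 0.572 and 0.992), nor did their average of 0.36 (95% interval 0.13 to 0.60, adjusted p = 0.120).

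CD70, the ligand of CD27, had 6.29 and 6.50 in GSI against 5.93 and 6.07 in Mock cells of Rec-1, a difference of 0.40 that did not pass (95% interval 0.10 to 0.69, limma adjusted p = 0.126). The GSI arrays were both above the Mock arrays in Rec-1. SP-49 had 5.95 and 5.89 against 5.88 and 5.94, and Mino had 6.29 and 6.02 against 6.26 and 6.24. In these lines the groups overlapped, with differences of 0.01 and −0.10.

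CD40 had close values with and without the inhibitor. It had 6.72 and 6.79 in GSI against 6.64 and 6.81 in Mock cells of Rec-1, 7.43 and 7.17 against 7.39 and 7.45 in SP-49, and 5.88 and 5.78 against 5.95 and 5.98 in Mino. The differences were 0.03 (95% interval −0.25 to 0.32), −0.13 (−0.41 to 0.16) and −0.14 (−0.43 to 0.15). Both GSI arrays were below both Mock arrays in Mino, and the groups overlapped in the other lines. No interval of this probe set, the brightest of 4, reached a difference of 0.5 in either direction. The dimmest CD40 probe set was less precise, with differences of 0.50 in Rec-1, 0.11 in SP-49 and −0.35 in Mino (SE 0.35). None of the 4 was called in any line.

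The receptors for BAFF and APRIL were not called either. TNFRSF13B had 5.78 and 5.69 in GSI against 5.53 and 5.45 in Mock cells of Rec-1, 5.48 and 5.30 against 5.16 and 5.26 in SP-49, and 4.14 and 4.84 against 4.57 and 4.16 in Mino. Both GSI arrays lay above both Mock arrays in Rec-1 and SP-49, with differences of 0.24 and 0.17, and the Mino groups overlapped at 0.13. TNFRSF13C had 3.78 and 2.99 against 3.58 and 3.60 in Rec-1, 4.32 and 4.41 against 4.34 and 4.24 in SP-49, and 3.55 and 3.45 against 3.26 and 3.84 in Mino. Its groups overlapped in every line, and the differences were −0.21, 0.07 and −0.05.

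FAS, the death receptor for FASLG, and TNFRSF8 (CD30), a receptor of activated lymphocytes, lay nearest to the median of all probe sets when averaged over the 12 arrays. FAS had 2.76 and 2.58 in GSI against 2.46 and 2.32 in Mock cells of Rec-1, 3.00 and 2.39 against 3.18 and 3.00 in SP-49, and 2.86 and 2.84 against 2.91 and 2.88 in Mino. Its GSI arrays were above the Mock arrays in Rec-1, met them in SP-49 and were just below them in Mino, with differences of 0.28, −0.39 and −0.05. Of 5 FAS probe sets, 5 were higher with GSI in Rec-1, 5 lower in SP-49 and 4 lower in Mino. In SP-49 their differences ran from −0.74 to −0.03, and 0 were called in any line. TNFRSF8 had 2.24 and 1.85 against 2.33 and 2.03 in Rec-1, 2.37 and 2.02 against 2.16 and 2.16 in SP-49, and 2.48 and 2.33 against 2.04 and 1.97 in Mino. The Mino groups did not overlap and differed by 0.40 (limma adjusted p = 0.992), which did not pass.

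Arrays that do not overlap were common among all genes. Both GSI arrays lay beyond both Mock arrays for 6 of 10 members in Rec-1, 5 in SP-49 and 6 in Mino, against 45.3%, 42.5% and 33.1% of all genes. No member was called in a difference of the GSI change between lines, where limma called 1.43% of all genes for Rec-1 minus Mino, 0.0455% for SP-49 minus Mino and 0.556% for Rec-1 minus SP-49. At an unadjusted p under 0.05 these comparisons held 2, 0 and 2 members, beside 14.1%, 7.17% and 11% of all genes.

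**Figure D2:**
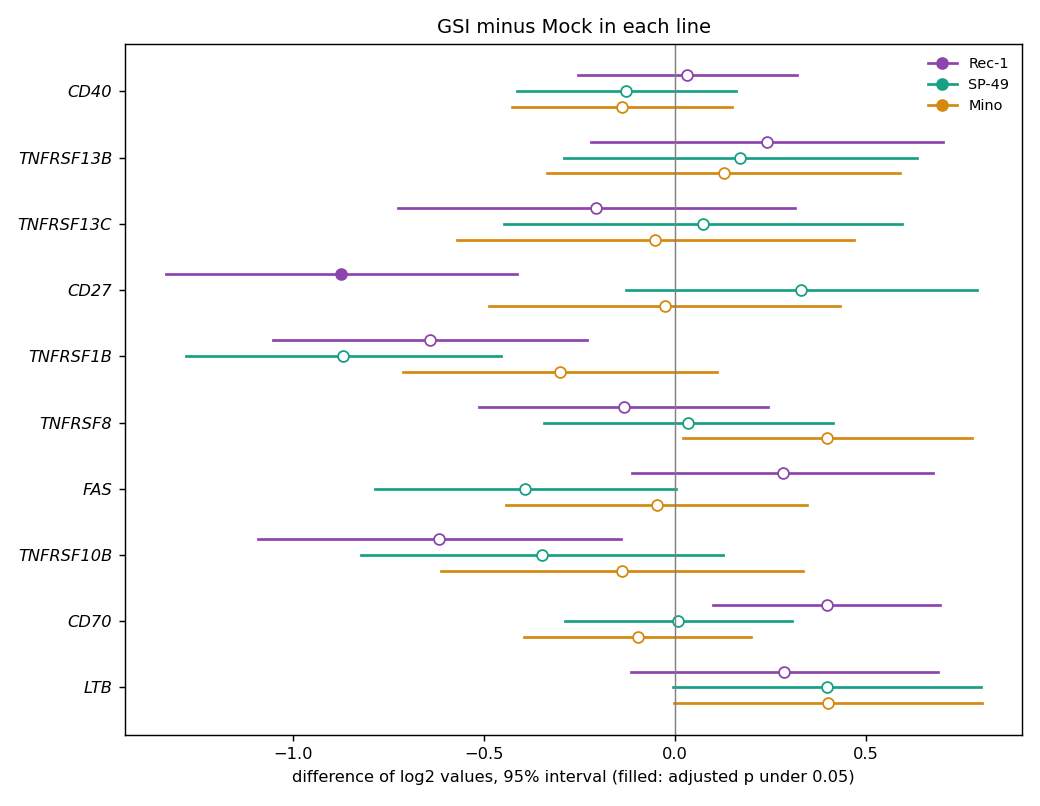
GSI minus Mock, in log2 units, for each member in Rec-1, SP-49 and Mino; points are differences of 2 arrays against 2, bars are 95% intervals, and filled points passed a limma adjusted p of 0.05. CD27 in Rec-1 is the point that passed, and TNFRSF1B lies below 0 in each line.

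The second question was how the lines differ without the inhibitor. CD40, CD27, TNFRSF13B, TNFRSF13C, TNFRSF10B and TNFRSF1B were higher in SP-49 than in Mino, and no member passed as lower. CD70 had a difference of −0.34 from Mino (95% interval −0.64 to −0.05), which did not pass (adjusted p = 0.0904). LTB was the 1 member that passed as higher in Rec-1 than in SP-49, and 6 passed as lower. Among Mock arrays limma called 6 of 10 members between Rec-1 and Mino (4 higher, 2 lower), 6 between SP-49 and Mino (6 higher) and 7 between Rec-1 and SP-49 (1 higher, 6 lower). Of all genes, 26.1% were called between Rec-1 and Mino (12.8% higher, 13.3% lower), 25.6% between SP-49 and Mino (13.9% higher, 11.8% lower) and 28.9% between Rec-1 and SP-49 (13.1% higher, 15.8% lower). All 10 members had a group mean above the median of all probe sets, and brighter genes were called more often. With dim genes left out, 2582 of 14470 were higher and 2681 lower for Rec-1 minus Mino. The counts were 2819 and 2384 for SP-49 minus Mino, and 2624 and 3180 for Rec-1 minus SP-49. The members' median difference was 0.11, 0.78 and −0.63, beside −0.03 to 0.04 for all genes. These comparisons share their Mock arrays. The samples are bulk RNA, so fewer cells carrying a transcript and less of it per cell cannot be told apart.

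CD27 covered the widest range. Mock means were 3.14 ± 0.56 in Rec-1, 7.48 ± 0.04 in SP-49 and 4.59 ± 0.09 in Mino (SD, n = 2 each). SP-49 exceeded Mino by 2.89, or 7.40-fold (95% interval 2.43 to 3.35, limma adjusted p = 1.32e-06). Rec-1 was lower than SP-49 by −4.34, or 20.2-fold (−4.80 to −3.88, adjusted p = 4.38e-08), and lower than Mino by −1.45, or 2.73-fold (adjusted p = 0.000277). Neighbours in the order SP-49, Mino, Rec-1 differed beyond their spread at each step.

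TNFRSF10B followed the same order. Mock means were 2.98 ± 0.50 in Rec-1, 6.73 ± 0.07 in SP-49 and 5.92 ± 0.03 in Mino (SD, n = 2 each). Rec-1 was 13.5-fold lower than SP-49 (log2 difference −3.75, limma adjusted p = 1.73e-07) and 7.68-fold lower than Mino (−2.94, adjusted p = 1.49e-06). SP-49 was 1.75-fold higher than Mino (0.81, adjusted p = 0.0155), and 4 of the 12 single-array omissions ended that call. Of its 4 probe sets, 3 were called lower in Rec-1 than in SP-49, and 1 was called lower in Rec-1 than in Mino. The dimmest, near the median of all values, had the opposite sign (0.27 from SP-49 and 0.37 from Mino) and was not called.

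LTB set Rec-1 apart in the other direction. Mock means were 7.13 ± 0.19 in Rec-1, 4.03 ± 0.08 in SP-49 and 4.03 ± 0.05 in Mino (SD, n = 2 each). Rec-1 was higher by 3.10 than either, 8.58-fold over SP-49 and 8.55-fold over Mino (limma adjusted p = 2.07e-07 and 2.45e-07). SP-49 and Mino differed by −0.01 (95% interval −0.41 to 0.40), which did not pass. The other LTB probe set had Mock means of 1.63, 1.49 and 1.72 in Rec-1, SP-49 and Mino, under the median of all values, and showed no such gap.

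CD40 had Mock means of 6.72 ± 0.12 in Rec-1, 7.42 ± 0.04 in SP-49 and 5.97 ± 0.02 in Mino (SD, n = 2 each). Each step of that order passed, with Rec-1 over Mino by 0.76, SP-49 over Mino by 1.46 and Rec-1 under SP-49 by −0.70 (limma adjusted p = 0.00102, 7.40e-06 and 0.00142). All 4 probe sets of CD40 gave the same signs, and 3 of 4 were called in each comparison.

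TNFRSF1B had Mock means of 5.68 ± 0.02 in Rec-1, 6.24 ± 0.36 in SP-49 and 5.07 ± 0.06 in Mino (SD, n = 2 each). SP-49 exceeded Mino by 1.17 and Rec-1 exceeded Mino by 0.62 (limma adjusted p = 0.000597 and 0.0305), and 4 of the 12 single-array omissions ended the Rec-1 call. Rec-1 was lower than SP-49 by −0.56 (adjusted p = 0.0444). That gap was −0.30 and did not pass without the first Mock array of SP-49. TNFRSF13B averaged 5.49 ± 0.06 in Rec-1, 5.21 ± 0.07 in SP-49 and 4.36 ± 0.29 in Mino. Rec-1 and SP-49 were higher than Mino by 1.13 and 0.85 (adjusted p = 0.00164 and 0.00990) and differed from each other by 0.28, which did not pass (adjusted p = 0.407). The call of SP-49 over Mino ended in 2 of the 12 single-array omissions.

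TNFRSF13C averaged 3.59 ± 0.01 in Rec-1, 4.29 ± 0.07 in SP-49 and 3.55 ± 0.41 in Mino (SD, n = 2 each). SP-49 was higher than Mino by 0.74 and Rec-1 lower than SP-49 by −0.70 (limma adjusted p = 0.0378 and 0.0454). These calls ended in 9 and 8 of the 12 single-array omissions. FAS was lower in Rec-1 than in SP-49 by −0.70 (adjusted p = 0.0111), with Mock means of 2.39 ± 0.10 in Rec-1, 3.09 ± 0.12 in SP-49 and 2.90 ± 0.02 in Mino. All 5 FAS probe sets were lower in Rec-1 than in SP-49 and 3 of them were called, and 2 of the 12 single-array omissions ended the gene's call. Rec-1 minus Mino was −0.51 for FAS and did not pass (adjusted p = 0.0608), but 4 of 11 other settings called it. CD70 and TNFRSF8 passed in no comparison of lines. CD70 had Mock means of 5.995, 5.91 and 6.25 in Rec-1, SP-49 and Mino, and TNFRSF8 had 2.18, 2.16 and 2.005.

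**Figure D3:**
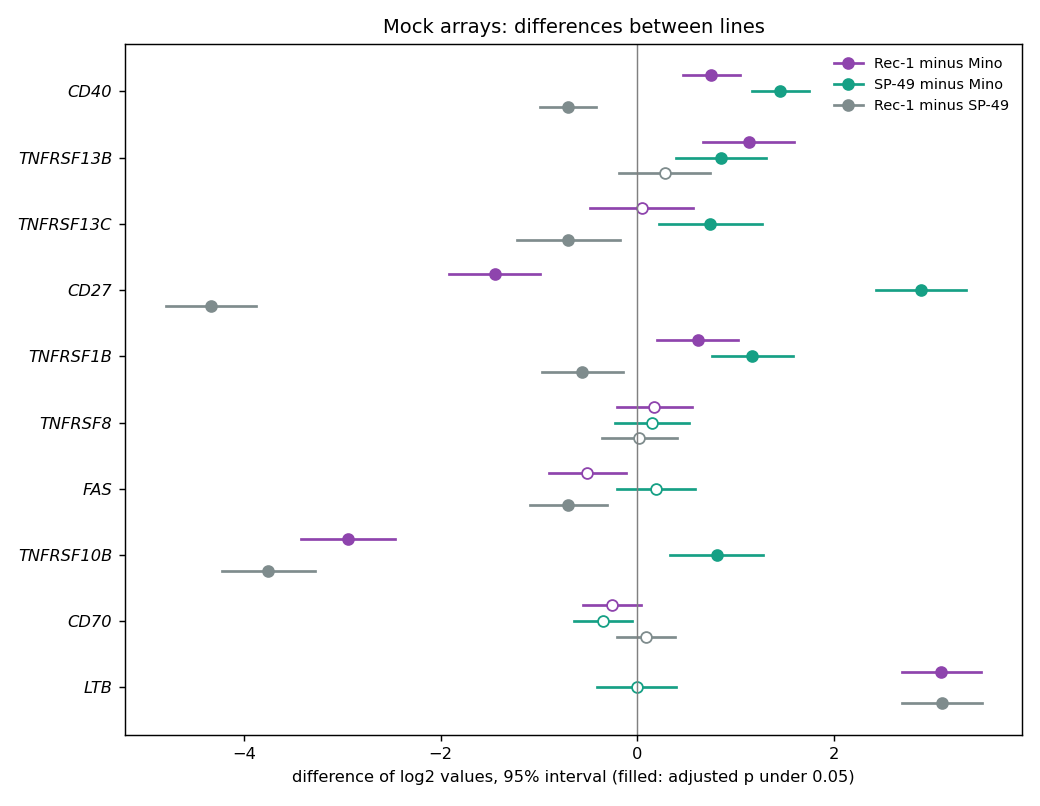
Differences of Mock levels between lines, in log2 units, for each member: Rec-1 minus Mino, SP-49 minus Mino and Rec-1 minus SP-49; points are differences of 2 arrays against 2, bars are 95% intervals, and filled points passed a limma adjusted p of 0.05. CD27 at −4.34 and TNFRSF10B at −3.75 lie farthest to the left for Rec-1 minus SP-49, and LTB at 3.10 farthest to the right.

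**Figure D4:**
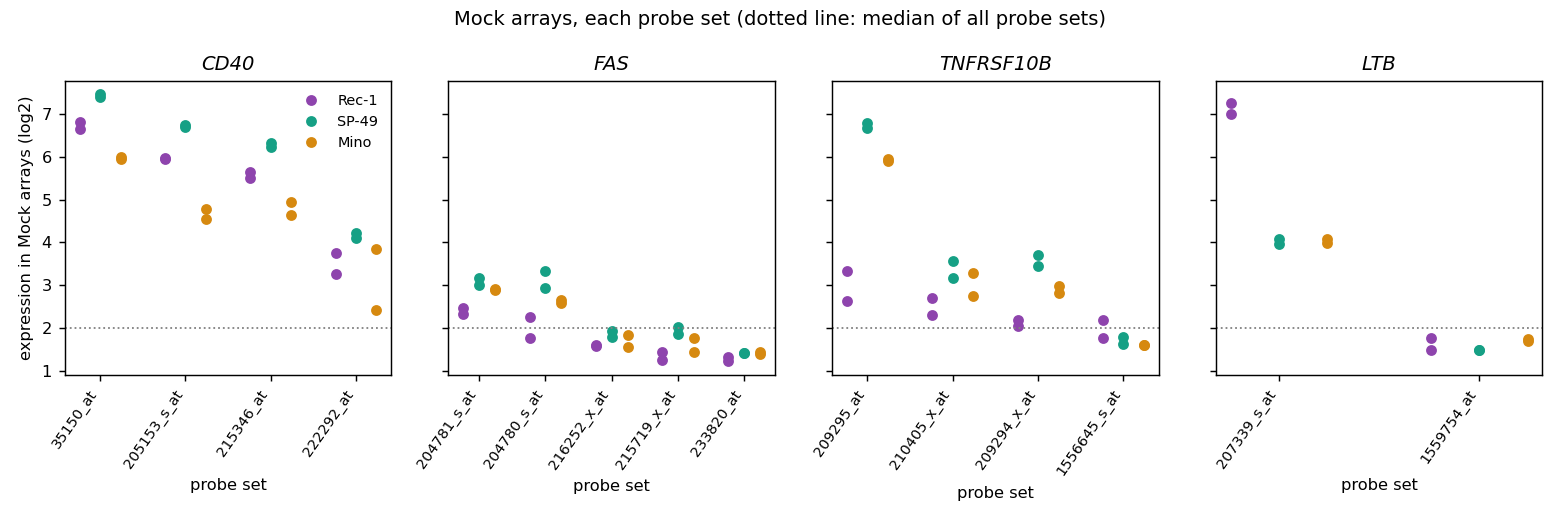
Log2 expression on the 6 Mock arrays for every probe set of the 4 members with several probe sets, coloured by line; points are arrays and the dotted line is the median of all probe sets. The CD40 probe sets keep 1 order of the lines, whereas the gaps of TNFRSF10B and LTB are widest in the probe set used for the gene. Other TNFRSF10B probe sets have gaps of −1.47 and −0.87 for Rec-1 minus SP-49, and the dimmest probe set of each of these genes has no called gap.

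Genes with the likest patterns were sought for CD27 and TNFRSF10B, over 12 arrays and among 4084 genes that varied with an SD of at least 0.5. Likeness was the root mean square difference in log2 units after each gene's own mean was subtracted. For CD27 the likest were ALDH2 (0.24), S100A10 (0.30) and HNRNPLL (0.46). ALDH2 had means of 2.41 in GSI and 3.07 in Mock cells of Rec-1, 7.94 and 7.62 in SP-49, and 4.72 and 4.90 in Mino. For TNFRSF10B the likest were PDE4A (0.26), KIFBP (0.29) and BDH2 (0.31). The 4 arrays of a line share that line's level, so the 12 points are not independent.

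The other genes of the pathway were read from lists of further receptors, ligands, adaptors and NF-kB components. Of 68 genes listed, 61 were measured. In Rec-1 4 of the 61 were called, all of them higher: TNFSF10, CFLAR, BIRC2 and CYLD. In SP-49 and in Mino limma called 0 of the 61. By list, 0 of 17 other receptors, 1 of 13 other ligands, 2 of 16 adaptors and death-domain genes and 1 of 15 NF-kB components rose in Rec-1, beside 2.15% of all genes that rose there. At an unadjusted p under 0.05 the lists held 3, 2, 6 and 4 genes in Rec-1, 3, 3, 1 and 3 in SP-49, and 0, 2, 2 and 2 in Mino, beside 19.2%, 8.87% and 4.9% of all genes. As shares of the lists, the counts in Rec-1 were 17.6%, 15.4%, 37.5% and 26.7%. Their median changes in Rec-1 were 0.20, 0.04, −0.01 and −0.04, beside 0.01 for all genes.

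TNFSF10 (TRAIL), the ligand of TNFRSF10B, had 5.38 and 4.89 in GSI against 3.63 and 3.22 in Mock cells of Rec-1. SP-49 had 3.77 and 3.55 against 3.81 and 4.09, and Mino had 2.65 and 2.72 against 2.83 and 2.87. The GSI arrays lay above the Mock arrays in Rec-1 and below them in the other lines. TNFSF10 rose by 1.71 in Rec-1, or 3.27-fold (95% interval 1.29 to 2.13, limma adjusted p = 0.000677), and the call held without any single array. It ended with only the compared arrays in the fit (adjusted p = 0.0777), and with the mean of its probe sets the difference was 1.04 (adjusted p = 0.00259). The differences in SP-49 and Mino were −0.29 and −0.16, which did not pass. The change in Rec-1 exceeded that in SP-49 by 1.999 and that in Mino by 1.87 (adjusted p = 0.0126 and 0.0104).

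CFLAR (c-FLIP), which blocks caspase-8 at death receptors, had 6.47 and 6.47 in GSI against 5.57 and 5.74 in Mock cells of Rec-1. It rose by 0.82 (95% interval 0.53 to 1.11, limma adjusted p = 0.00466). With the mean of its probe sets in place of the brightest, the difference was 0.19 and did not pass (adjusted p = 0.390), with only the compared arrays in the fit the adjusted p was 0.0997, and without the first Mock array of Rec-1 the adjusted p was 0.0531. BIRC2 (cIAP1), a ubiquitin ligase of TNF receptor complexes, had 8.32 and 8.32 in GSI against 7.78 and 7.77 in Mock cells of Rec-1. It rose by 0.55 (adjusted p = 0.0262), and 3 of the 12 single-array omissions ended the call, with adjusted p-values of up to 0.132. So did 5 of 11 other settings, among them array weights (0.0658) and only the compared arrays in the fit (0.174).

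CYLD, a deubiquitinase that restrains NF-kB signalling, had 5.04 and 4.94 in GSI against 4.48 and 4.45 in Mock cells of Rec-1. It rose by 0.52 (limma adjusted p = 0.0407), a call that ended in 8 of the 12 single-array omissions and in 9 of 11 other settings. With the mean of its probe sets the difference was 0.19 (adjusted p = 0.467). In SP-49 CYLD had 5.03 and 4.80 against 5.45 and 5.42, with both GSI arrays below both Mock arrays. That difference of −0.52 did not pass (adjusted p = 0.193).

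**Figure D5:**
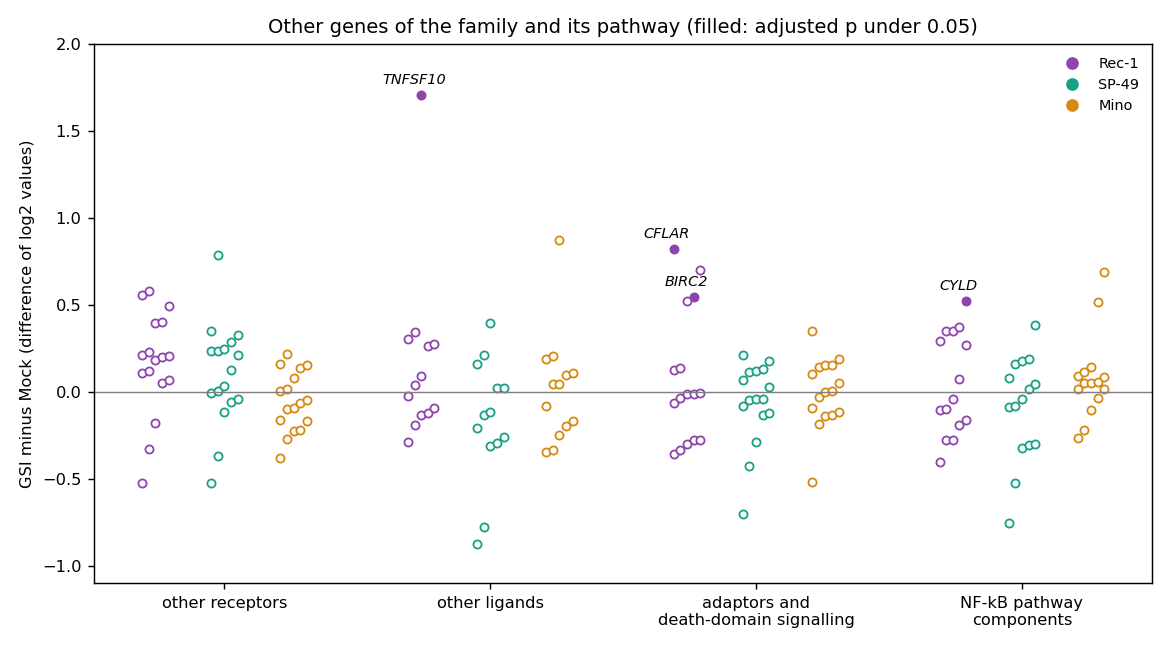
GSI minus Mock, in log2 units, for the 61 measured genes of 4 lists of further receptors, ligands, adaptors and NF-kB components; points are genes, filled points passed a limma adjusted p of 0.05, and the lines run Rec-1, SP-49, Mino. The 4 genes that passed are all in Rec-1, and TNFSF10 lies highest at 1.71.

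Some array-level values moved with the treatment. The gap between 3′ and 5′ GAPDH probe sets, a measure of RNA integrity, was 0.59 and 0.49 in GSI against 0.41 and 0.37 in Mock cells of Rec-1, 0.35 and 0.44 against 0.35 and 0.34 in SP-49, and 0.31 and 0.39 against 0.26 and 0.25 in Mino. It was wider on the GSI arrays of Rec-1 and Mino. The same gap for ACTB was 2.29 and 1.92 in GSI against 1.999 and 1.83 in Mock cells of Rec-1, 2.30 and 2.16 against 2.29 and 2.36 in SP-49, and 2.001 and 1.94 against 1.73 and 1.79 in Mino. The mean of the T and NK cell markers was 2.16 and 2.21 in GSI against 2.23 and 2.45 in Mock cells of Rec-1. Within that list CD3D had 4.03 and 4.30 in GSI against 4.81 and 4.79 in Mock cells of Rec-1, and it fell by 0.63 (limma adjusted p = 0.0253). The mean of the 8 B-cell markers was 8.58 and 8.70 in GSI against 8.32 and 8.40 in Mock cells of Rec-1, 8.26 and 8.38 against 8.15 and 8.13 in SP-49, and 7.73 and 7.78 against 7.77 and 7.89 in Mino. In Rec-1 3 of the 8 were called higher, CD79B by 1.06, CD37 by 0.69 and MS4A1 by 0.51 (limma adjusted p = 0.000792, 0.0261 and 0.0400). Of all genes 2.15% were called higher there, and the median difference of the 8 was 0.39. PAX5, CD22 and EBF1 had lower means with GSI than with Mock in Rec-1, without a call (8.45 against 8.87, 5.31 against 5.58 and 7.04 against 7.13). Of 6 plasma cell markers, JCHAIN rose in Rec-1 by 1.56 and MZB1 in SP-49 by 0.80 (limma adjusted p = 0.000654 and 0.0463). SDC1, IRF4 and XBP1 had lower means with GSI than with Mock in Rec-1, without a call (2.82 against 3.45, 6.755 against 7.10 and 5.165 against 5.26). PRDM1 and MZB1 had higher means there, also without a call (3.95 against 3.07 and 7.94 against 7.68). In SP-49 PRDM1, XBP1, IRF4 and JCHAIN had higher means with GSI, without a call. Their means were 4.11 against 3.72, 7.09 against 6.65, 8.19 against 7.69 and 2.46 against 1.86. SDC1 was at 5.41 against 5.43 in SP-49. The part of these values in the results on CD27 and TNFRSF1B was not tested. With the second GSI arrays of Rec-1 and SP-49 both left out, the CD27 call in Rec-1 and the average TNFRSF1B call ended (adjusted p = 0.107 and 0.0528).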

How the data were processed

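Expression was measured on 12 Affymetrix arrays. The deposited values are log2 expression values per probe set, made by the authors with RMA, per the submitters' processing notes, which also name limma. No version or genome build is given in the sources used here, and base 2 was taken from the range of the values. Of 54675 probe sets, 41097 named 1 gene in the platform annotation, 1801 several and 11777 none. Each of 19775 genes was read by the probe set that was brightest on average.

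A linear model with 6 group means over 12 arrays was fitted in limma 3.58.1 (R 4.3.3) with empirical Bayes moderation (6 residual and 5.216 prior degrees of freedom). P-values are two-sided and Benjamini-Hochberg adjusted over all genes within each comparison, with a threshold of 0.05. The median standard error of a GSI change was 0.164, and 2 arrays per group limit the precision. The fit was run on simulated data with independent noise per gene, where the only requirement was that mean estimates lay near the changes put in. That run gives no support to single calls. Every member is named. List genes were named where they passed in a GSI minus Mock comparison. Likest patterns were sought for the member that passed in a single line and for the member with the next widest range of Mock means. The members and lists were chosen with earlier results of these data known. Promoter windows came from RefSeq (GRCh38.p14). Alternatives covered the probe set rule, filter, normalization, moderation, array weights, fold minimum, replicate block, arrays fitted and arrays left out.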

Additional observations from a re-analysis of the deposited data

Results flagged for a closer look

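The effect of GSI on 2 genes differed between lines by a test of the difference itself. TNFSF10 had a change of 1.71 in Rec-1 against −0.29 in SP-49 and −0.16 in Mino. The difference of the changes was 1.999 for Rec-1 minus SP-49 (95% interval 1.41 to 2.59, limma adjusted p = 0.0126) and 1.873 for Rec-1 minus Mino (1.28 to 2.47, adjusted p = 0.0104). Both GSI arrays were above both Mock arrays in Rec-1 and below them in the other lines. The Rec-1 minus SP-49 call ended in 4 of the 12 single-array omissions, with adjusted p-values of up to 0.0825, and the Rec-1 minus Mino call ended in 1, at 0.0502. With only the compared arrays in the fit the Rec-1 minus SP-49 call ended (0.0576), and with the mean of the probe sets the differences were 1.18 and 1.07 (adjusted p = 0.0423 and 0.0340).

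CYLD had a change of 0.52 in Rec-1 against −0.52 in SP-49, a difference of 1.045 (95% interval 0.64 to 1.46, limma adjusted p = 0.0359). That call ended in 10 of the 12 single-array omissions, with adjusted p-values of 0.0441 to 0.172 over all 12. It also ended in 5 of 11 other settings, and with the mean of its probe sets the difference was 0.50 (adjusted p = 0.295).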

How the results depend on the processing

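Over all alternatives 2930 values were recomputed for the members and the genes named: 2796 kept their side of the threshold and 0 called values reversed. Of the rest, 114 lost a call and 20 gained one. Most of the recomputed values belong to comparisons without a call in the main fit, so the total says little about how stable the calls are. Among values that passed in neither fit, 86 changed sign. Beside the 1 member called in Rec-1, the count was 2 with an intensity trend and robust prior and 2 with the replicate block, and 0 with only the compared arrays in the fit, with array weights or without the second GSI arrays of Rec-1 and SP-49. The added average over lines, with 1 member called, gave 0 after quantile normalization, with the replicate block or without those arrays. With the trend and robust prior, 1 member was called in SP-49 and 1, CD27, in the difference Rec-1 minus SP-49. Leaving out 1 array at a time gave counts of 0 to 1 for GSI minus Mock in Rec-1, for the average and for the differences Rec-1 minus Mino and Rec-1 minus SP-49, and 0 to 0 for SP-49, Mino and the difference SP-49 minus Mino. Mock levels gave 5 to 7 members for Rec-1 minus Mino, 3 to 6 for SP-49 minus Mino and 4 to 7 for Rec-1 minus SP-49. An omission leaves 1 array in a group, which is assumed to vary like the other groups. Same-numbered arrays shared little deviation from their group means over all probe sets, with correlations of 0.0694 in Rec-1, −0.0111 in SP-49 and 0.0477 in Mino. Most probe sets lie at low values, so these correlations do not settle whether same-numbered arrays were handled together. With the block, CD27 stayed called in Rec-1 and TNFRSF10B was called there too (adjusted p = 0.0448), while the TNFRSF1B average (0.0617), BIRC2 and CYLD in Rec-1 (0.0692 and 0.0638) and the CYLD difference Rec-1 minus SP-49 (0.0819) were no longer called. With only the compared arrays the fit for the average is the same, so it has no separate value. Members near the median of all probe sets, FAS and TNFRSF8 above all, give the least room to see a fall. Over all genes in Rec-1, 426 rose and 715 fell, against 634 and 1089 with the trend and robust prior, 238 and 458 with array weights and 11 and 10 with only the compared arrays. Another quantile normalization turned 101 higher and 275 lower genes of the average into 182 and 211, and 111 and 172 of the difference Rec-1 minus Mino into 152 and 134.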

Other observations

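Several family genes outside the 10 members also separated the lines in Mock cells. They are described here because of their size, so they were chosen after their values were seen. Of 17 other receptors, limma called 0 higher and 5 lower for Rec-1 minus Mino, and 2 and 2 for SP-49 minus Mino. For Rec-1 minus SP-49 it called 0 higher and 5 lower. In the same order the 13 other ligands had 1 and 3, 5 and 1, and 1 and 7. Of all genes 26.1%, 25.6% and 28.9% were called in these comparisons, and the receptor counts were near those shares. TNFRSF17 (BCMA), the plasma-cell receptor for BAFF and APRIL, had 2.37 and 2.39 in Rec-1, 6.53 and 6.75 in SP-49, and 7.01 and 7.21 in Mino. It was lower in Rec-1 than in Mino by −4.73 (limma adjusted p = 7.79e-07) and lower than in SP-49 by −4.26 (adjusted p = 1.50e-06). TNFRSF21, a death-domain receptor, had 2.29 and 2.23 in Rec-1, 6.33 and 6.37 in SP-49, and 4.44 and 4.98 in Mino, and Rec-1 was lower than SP-49 by −4.09 (adjusted p = 1.64e-07). TNFRSF11A (RANK) was high in SP-49, with 4.82 and 5.26, against 1.31 and 1.43 in Mino. The ligand TNFSF8, which binds TNFRSF8, was low in Rec-1 with 1.60 and 1.32 and in SP-49 with 2.17 and 2.39, against 5.25 and 5.54 in Mino. TNF had 6.02 and 5.96 in SP-49, against 2.26 and 3.28 in Mino, a difference of 3.21 (adjusted p = 3.50e-06).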
